A study of Glycine max with 24 samples.

Results

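The flavonol and anthocyanin branch genes are 9 soybean (Glycine max) loci that encode enzymes of flavonoid synthesis downstream of naringenin. They were taken by identifier from the 57105 genes of a leaf and a root read count table. They are Glyma.02G048400 (F3H1), Glyma.02G048600 (F3H2), Glyma.06G202300 (F3'H), Glyma.13G072100 (F3'5'H), Glyma.13G082300 (FLS1), Glyma.14G072700 (DFR1), Glyma.17G252200 (DFR2), Glyma.01G214200 (ANS2) and Glyma.11G027700 (ANS3). The digits before the G in each identifier give the chromosome. The names came with the list, since the count tables hold identifiers only. In RefSeq's gene table (assembly Glycine_max_v4.0), a symbol or synonym equal to the name lay on the chromosome in the identifier for 8 of the 9, all but F3H1. The gene matched to ANS2 also carries the synonym ANS3, so the name ANS3 is not unique there.

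RNA was sequenced from leaves and roots of the wild type cultivar Jack and of transgenic soybean labelled GmNFYA, which the series' design text calls overexpressing. NF-YA proteins are subunits of nuclear factor Y, a transcription factor that binds CCAAT boxes. Plants were untreated (0 h) or had received 150 mM NaCl for 6 h. This gives 8 groups of 3 libraries, 24 in all. The transgenic libraries share 1 code in their titles, and the labels name no promoter, transformation event or plant age. The labels also do not say whether replicates came from separate plants, so p-values measure the spread between these libraries, which may be technical. Untreated plants were collected at 0 h and treated plants at 6 h, so NaCl and elapsed time cannot be told apart. The series' title speaks of seeds, whereas every sample is labelled leaf or root. The tissue labels were not checked against marker genes, because no table used here pairs the identifiers with names.

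Flavanone 3-hydroxylase (F3H) converts naringenin to a dihydroflavonol, the precursor shared by the flavonol and the anthocyanin branch. Flavonoid 3'-hydroxylase (F3'H) and flavonoid 3',5'-hydroxylase (F3'5'H) add hydroxyl groups to the B ring. Flavonol synthase (FLS) turns dihydroflavonols into flavonols, the glycosides of which are abundant in soybean leaves. Dihydroflavonol 4-reductase (DFR) and anthocyanidin synthase (ANS) lead to anthocyanidins, the coloured aglycones of anthocyanins. In soybean the T locus encodes F3'H and governs pubescence and seed coat colour, W1 encodes F3'5'H, and W3 and W4 encode DFR1 and DFR2. The W loci are known for flower colour.

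Reads counted to genes ranged from 17696429 to 21053889 per leaf library and from 17005570 to 23459341 per root library. Levels are given as CPM, a gene's reads relative to the library's total after TMM scaling within a tissue. They are not divided by gene length, so they compare 1 gene between samples and not genes with each other. Fold changes are those of the fitted model, unless given as a ratio of levels from few reads, and can differ slightly from the ratio of the mean CPM. The identifier 02G303800 stood between 614 and 780 CPM in GmNFYA leaves and between 11.9 and 27.6 in Jack leaves. In root it stood between 338 and 552 CPM in GmNFYA and between 0.924 and 8.59 in Jack. None of the tables used here pairs an identifier with the transgene, so this is no check of the transgene itself. The share of reads aligning to several places was 9.64% ± 0.590 (SD, n = 3) in untreated Jack roots. It was 5.53% ± 0.343 in untreated GmNFYA roots, 6.40% ± 0.269 in NaCl-treated Jack roots and 5.48% ± 0.116 in NaCl-treated GmNFYA roots. In leaf, GmNFYA NaCl replicate 3 stood at 9.29%, against 5.01% and 4.87% in replicates 1 and 2 of its group. The part of this share in the root and leaf results below was not tested.

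Of the 9 genes, 7 had reads in leaf and 8 in root. All 7 with leaf reads passed the filter on low counts in leaf, among 35222 genes tested. In root 4 passed, F3H1, F3'H, F3'5'H and FLS1, among 36390 genes tested. DFR1, the enzyme of the W3 locus, had 0 reads in all 24 libraries. A count of 0 over the 12 libraries of a tissue allows a level of up to 0.0127 CPM in leaf and 0.0124 CPM in root, counting error only. F3H2, the other flavanone 3-hydroxylase, had 0 reads in leaf and 26 reads over 9 of the 12 root libraries. Both F3H identifiers are on chromosome 2, and reads shared by near-identical copies could be lost or split between them, so the split between F3H1 and F3H2 is uncertain.

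The clearest contrast among these genes was between the tissues. To compare tissues, all 24 libraries were scaled and fitted together, and the levels in this paragraph are on that joint scale. In bulk tissue, fewer cells of a type and less RNA per cell cannot be told apart. F3H1 stood at 73.9, 63.3 and 67.3 CPM in the untreated Jack leaves and at 0.908, 1.15 and 1.52 in the untreated Jack roots. Each leaf library thus lay far above each root library. The means were 68.2 ± 5.39 CPM (SD, n = 3) in leaf and 1.19 ± 0.307 in root, and the fitted difference was 56.0-fold. On the log2 scale the root minus leaf difference was -5.81 ± 0.282 (SE), with an adjusted p of 7.76e-14 (edgeR's quasi-likelihood test, Benjamini-Hochberg adjustment). In the GmNFYA line F3H1 was 60.6-fold lower in untreated root than in leaf, 1.62 ± 0.539 against 99.3 ± 18.7 CPM. A difference is called here at an adjusted p under 0.05 over all genes tested. At that threshold root and leaf differed for 69.9% of the 39003 genes tested in untreated Jack and for 70.9% in untreated GmNFYA, so a tissue difference in itself was the usual case.

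FLS1 showed a still wider gap. In untreated Jack, 4372 reads fell on it over the 3 leaf libraries and 2 over the 3 root libraries, both of them in replicate 3. The levels had a ratio of 2645, and counting error alone allows 732 to 21849 (95% interval). In untreated GmNFYA, FLS1 stood at 88.1, 65.6 and 79.3 CPM in leaf and at 0.495, 0.319 and 0.271 CPM in root, a 209.9-fold difference (adjusted p = 1.91e-15). Of the anthocyanin steps, DFR2, ANS2 and ANS3 also stood higher in leaf than in root, whereas DFR1 had no reads in either. DFR2 had 52 reads in the untreated Jack leaves and 110 in the untreated GmNFYA leaves, against 0 in either set of untreated roots. Set against 3 counts over the root group, DFR2 was at least 21.0-fold lower in root in Jack and at least 49.4-fold lower in GmNFYA. In all 12 root libraries it had 2 reads, both in 1 NaCl-treated Jack library.

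ANS3 had 78 reads in the untreated Jack leaves and 0 in the roots, at least 31.5-fold lower. In untreated GmNFYA it had 115 leaf reads and 2 root reads, a 77.5-fold gap (95% counting interval 21.0 to 648). ANS2 was the anthocyanidin synthase with reads in every root library, 1 to 9 in each and 59 in all. Its root level was 24.6-fold below leaf in untreated Jack (adjusted p = 2.18e-08) and 15.4-fold below in untreated GmNFYA (adjusted p = 1.12e-08). DFR2, ANS2 and ANS3 passed the filter of the joint fit through their leaf levels. Neither their number nor the adjusted p of ANS2 therefore adds to the levels and reads given.

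The B-ring hydroxylases did not share that pattern. F3'H stood at 3.94, 2.95 and 2.91 CPM in untreated Jack leaf and at 3.03, 3.25 and 4.76 in untreated Jack root. These ranges overlap, and the root minus leaf difference of 0.18 on the log2 scale had a 95% interval of -0.33 to 0.68 (adjusted p = 0.534). In untreated GmNFYA, F3'H was 2.14-fold lower in root than in leaf, 1.73 ± 0.633 against 3.71 ± 1.20 CPM (adjusted p = 0.000609). F3'5'H was higher in root than in leaf in untreated Jack, 1.54 ± 0.752 against 0.640 ± 0.373 CPM. That is 2.34-fold, or 1.23 ± 0.488 on the log2 scale (adjusted p = 0.0297), although the libraries of the tissues overlap. The call was lost without Jack untreated leaf replicate 2 (log2 0.89, adjusted p = 0.118), without Jack untreated leaf replicate 3 (1.26, 0.0599) or without Jack untreated root replicate 1 (0.80, 0.189). In GmNFYA the F3'5'H difference was 0.59 on the log2 scale, with an adjusted p of 0.252.

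**Figure D1:**
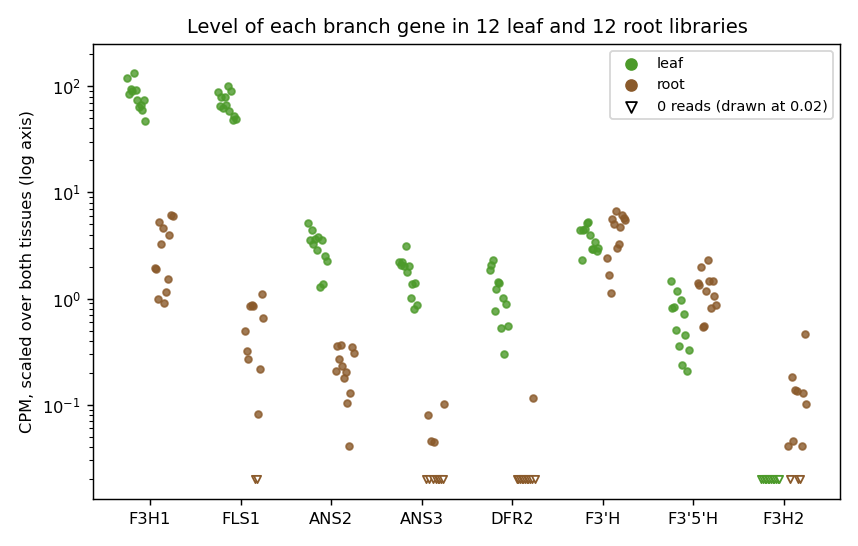
Level of each branch gene with reads in the 12 leaf and 12 root libraries, in CPM scaled over both tissues, on a log axis. Each point is a library, and open triangles mark libraries with 0 reads. F3H1, FLS1, DFR2, ANS2 and ANS3 have every leaf library above every root library, whereas F3'H and F3'5'H overlap. DFR1, at 0 reads throughout, is not drawn.

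The order of the 8 groups by joint-scale mean differed between genes. For F3H1 it ran from GmNFYA NaCl leaf (105 ± 23.8 CPM) and GmNFYA untreated leaf (99.3 ± 18.7) to Jack untreated leaf (68.2 ± 5.39) and Jack NaCl leaf (60.1 ± 13.4). The root groups followed, Jack NaCl (5.39 ± 1.21), GmNFYA NaCl (4.39 ± 1.02), GmNFYA untreated (1.62 ± 0.539) and Jack untreated (1.19 ± 0.307). Neighbours in that order overlapped within each genotype in leaf and within each treatment in root, and the remaining neighbours were separate. For F3'H the NaCl-treated roots of Jack (5.80 ± 0.335) and GmNFYA (5.77 ± 0.779) came highest and the untreated GmNFYA roots (1.73 ± 0.633) lowest. For F3'5'H the untreated roots of GmNFYA (1.58 ± 0.353) and Jack (1.54 ± 0.752) came highest and NaCl-treated Jack leaves (0.331 ± 0.123) lowest, and every pair of neighbours overlapped.

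In Jack leaves FLS1 was the branch gene that fell with NaCl. It stood at 92.1, 53.7 and 82.1 CPM in the untreated libraries and at 44.8, 48.4 and 45.9 in the treated ones. All 3 treated libraries lay below all 3 untreated ones, and they lay close together. The means were 76.0 ± 19.9 and 46.4 ± 1.81 CPM (SD, n = 3), a 1.64-fold fall, or -0.71 ± 0.177 on the log2 scale (adjusted p = 0.0084). It was 1 of 7 tested branch genes called, where 33.6% of all 35222 leaf genes were called and 15.7% were called lower, so the number of calls does not set these genes apart. The other 6 had adjusted p between 0.226 and 0.862. The log2 values of all 7 lay below 0, from -0.91 for F3'5'H to -0.06 for F3'H with a median of -0.48, beside a median of -0.01 over all leaf genes. Jack untreated leaf replicate 2 was the lowest of its group for 6 of the 7 genes and replicate 1 was the highest for all 7. Without replicate 2, ANS2 was called as well (log2 -0.82, adjusted p = 0.0330).

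In GmNFYA leaves no branch gene was called with NaCl, at a background of 36.1%. None had an unadjusted p under 0.05, and DESeq2 called none. FLS1 stood at 81.0, 60.1 and 72.5 CPM untreated and at 58.3, 75.4 and 63.0 with NaCl, and these ranges overlap. Its log2 difference of -0.12 had a 95% interval of -0.50 to 0.26. DFR2, the reductase of the anthocyanin branch, stood at 1.70, 1.89 and 2.12 CPM untreated and at 0.717, 1.17 and 1.35 with NaCl. Its groups did not overlap, but the log2 difference of -0.82 ± 0.392 missed the threshold (adjusted p = 0.122). The 7 log2 values had a median of -0.12 beside -0.02 over all leaf genes.

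Whether NaCl acted differently in the lines was tested directly as a genotype by NaCl interaction, which was called for 2.45% of leaf genes and for none of the 7 branch genes. FLS1 had the 1 unadjusted p under 0.05 (0.0335). Its NaCl difference was higher in GmNFYA by 0.59 ± 0.249 on the log2 scale (adjusted p = 0.252), and DESeq2 called none. Without Jack untreated leaf replicate 2, the low one, the FLS1 value was 0.79 with an adjusted p of 0.0332. The fall of FLS1 in Jack leaves is therefore not shown to differ from its change in GmNFYA leaves.

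**Figure D2:**
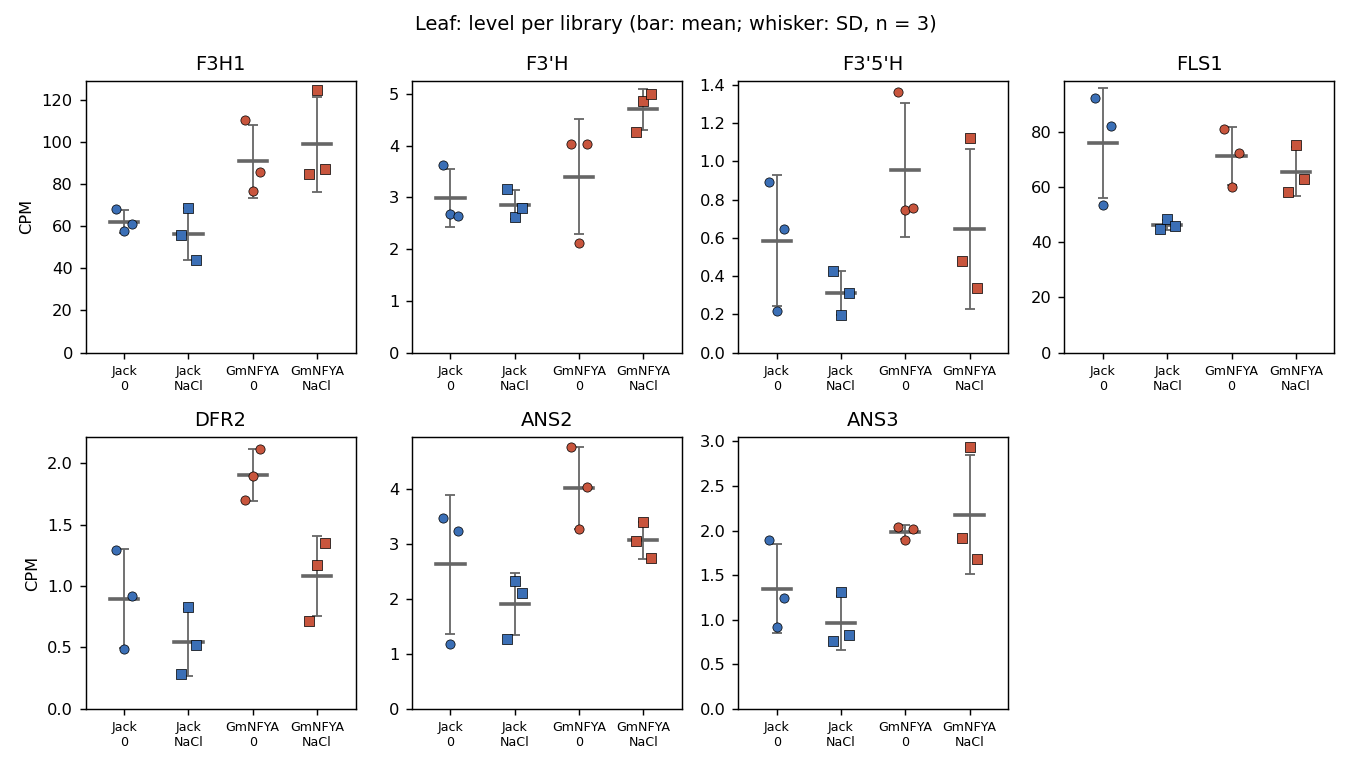
Leaf levels in CPM of the 7 branch genes with leaf reads, in Jack and GmNFYA, untreated (0) and after 150 mM NaCl for 6 h. Points are the 3 libraries of a group, and bars give the mean ± SD. The NaCl-treated Jack libraries of FLS1 sit between 44.8 and 48.4, below the untreated ones, and NaCl-treated GmNFYA leaves are above NaCl-treated Jack leaves for F3H1 and ANS3.

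Between the lines, NaCl-treated leaves held more F3H1 and more ANS3 transcript in GmNFYA than in Jack. F3H1 stood at 84.6, 125 and 87.1 CPM in GmNFYA and at 55.9, 68.8 and 44.1 in Jack. No library of one line reached the range of the other. The means of 98.9 ± 22.6 and 56.3 ± 12.3 CPM differed 1.76-fold, 0.81 ± 0.191 on the log2 scale (adjusted p = 0.0199). ANS3 stood at 1.91, 2.93 and 1.68 CPM in GmNFYA and at 0.756, 1.31 and 0.826 in Jack, again without overlap. Its means of 2.18 ± 0.666 and 0.965 ± 0.303 CPM differed 2.24-fold, 1.16 ± 0.332 on the log2 scale (adjusted p = 0.0434). These 2 of 7 were called higher where 3.65% of leaf genes were called higher and 9.61% in either direction. That fit ignores the replicate number. With the replicate number as a block, 1 branch gene was called, F3H1, beside 10.6% of leaf genes in either direction.

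The other 5 genes had positive log2 differences that missed the threshold, 0.72 for F3'H (adjusted p = 0.0773), 0.50 for FLS1 (0.0983), 0.99 for DFR2 (0.189), 0.69 for ANS2 (0.252) and 1.02 for F3'5'H (0.338). The median over the 7 was 0.81 beside -0.01 over all leaf genes. FLS1, at 58.3 to 75.4 CPM in GmNFYA and 44.8 to 48.4 in Jack, did not overlap between the lines either. Same-numbered libraries deviated together in this comparison, and with the replicate number as a block F3H1 stayed called and ANS3 did not (log2 1.16, adjusted p = 0.0521). The F3H1 call was lost without GmNFYA NaCl leaf replicate 2 (log2 0.63, adjusted p = 0.0747) or Jack NaCl leaf replicate 3 (0.68, 0.0600). The ANS3 call was lost without GmNFYA NaCl leaf replicate 1 (adjusted p = 0.0766) or 2 (0.169), Jack NaCl leaf replicate 1 (0.105) or 3 (0.120), Jack untreated leaf replicate 3 (0.0511) or any of the GmNFYA untreated leaf replicates (0.0599 to 0.0666). F3'H was called without GmNFYA untreated leaf replicate 2 (0.0347), and FLS1 without Jack untreated leaf replicate 2 (0.0182).

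In untreated leaves no branch gene was called between the lines, at a background of 4.51%. F3H1 and DFR2 had unadjusted p under 0.05, and DESeq2 called none. F3H1 stood at 110.4, 77.0 and 85.6 CPM in GmNFYA and at 68.1, 57.5 and 61.2 in Jack. The groups did not overlap, and the difference of 1.46-fold or 0.55 ± 0.191 on the log2 scale had an unadjusted p of 0.0136 and an adjusted p of 0.129. DFR2 stood at 1.70, 1.89 and 2.12 CPM in GmNFYA and at 1.29, 0.484 and 0.919 in Jack, 2.10-fold apart without overlap (unadjusted p = 0.0189, adjusted p = 0.152). FLS1 was the 1 gene with a value below 0, -0.09 with a 95% interval of -0.47 to 0.29. The median over the 7 was 0.55. The treated and the untreated comparison use different libraries, and no gene's difference between them passed the interaction test given above.

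**Figure D3:**
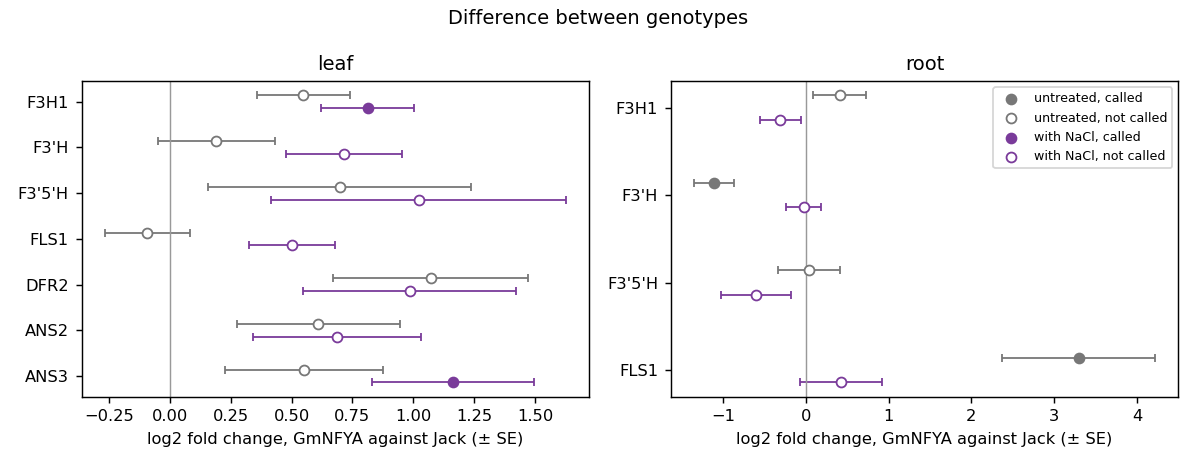
Difference between GmNFYA and Jack in each branch gene, as log2 fold change ± SE, in leaf and in root, for untreated and NaCl-treated plants. Filled points were called at an adjusted p under 0.05 and open points were not. In leaf the NaCl-treated values lie above 0 for all 7 genes with F3H1 (0.81) and ANS3 (1.16) called, and in root the untreated F3'H (-1.11) and FLS1 (3.29, from 26 and 2 reads) were called.

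In roots F3H1 and F3'H rose with NaCl in both lines. F3H1 stood at 0.978, 1.25 and 1.64 CPM in untreated Jack roots and at 4.34, 6.74 and 6.55 after NaCl. The groups lay well apart, with means of 1.29 ± 0.333 and 5.88 ± 1.33 CPM. The fitted rise was 4.46-fold, 2.16 ± 0.290 on the log2 scale (adjusted p = 1.15e-05). In GmNFYA roots F3H1 stood at 2.07, 2.04 and 1.06 CPM untreated and at 5.74, 3.52 and 4.93 after NaCl, 2.72-fold higher (1.44 ± 0.276, adjusted p = 0.000317). Here too the groups did not overlap. The paralog F3H2 had 0, 0 and 1 reads in untreated Jack roots and 3, 8 and 2 after NaCl, 13.8 times the level (95% counting interval 2.07 to 586). It did not pass the filter, and in GmNFYA roots it had 5 reads untreated and 7 after NaCl.

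F3'H, the T locus enzyme, also rose with NaCl in both lines. In Jack roots it stood at 3.26, 3.53 and 5.15 CPM untreated and at 6.68, 6.29 and 6.00 after NaCl, 1.58-fold higher (0.66 ± 0.222, adjusted p = 0.0188). In GmNFYA roots it stood at 2.56, 1.79 and 1.21 CPM untreated and at 6.08, 5.46 and 7.11 after NaCl, 3.33-fold higher (1.74 ± 0.237, adjusted p = 1.12e-05). The treated levels of the lines lay close together and the untreated ones apart. The Jack call was lost without Jack untreated root replicate 1 (log2 0.53, adjusted p = 0.0832) or 2 (0.57, 0.0673).

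F3'5'H, the W1 enzyme, moved the other way in GmNFYA roots. It stood at 1.50, 1.45 and 2.13 CPM untreated and at 0.588, 0.596 and 1.26 after NaCl, 2.06-fold lower (-1.04 ± 0.399, adjusted p = 0.0356). This call was lost without GmNFYA untreated root replicate 3 (log2 -0.85, adjusted p = 0.122) or GmNFYA NaCl root replicate 1 (-0.85, 0.129) or 2 (-0.86, 0.124). In Jack roots F3'5'H stood at 2.50, 1.60 and 0.888 CPM untreated and at 1.59, 1.14 and 0.944 after NaCl. These ranges overlap, and the log2 difference of -0.41 had a 95% interval of -1.23 to 0.42.

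FLS1 had almost no reads in untreated Jack roots and rose with NaCl there. It had 0, 0 and 2 reads in the untreated libraries and 5, 19 and 13 in the treated ones. Its level was 19.6 times as high (95% counting interval 5.06 to 168), and the fitted log2 difference of 4.12 had an adjusted p of 0.000708. Without Jack untreated root replicate 3, the library that holds both untreated reads, the fitted value was 6.80. In GmNFYA roots it had 12, 8 and 6 reads untreated and 19 in each treated library, 0.387 ± 0.126 and 0.931 ± 0.0122 CPM. The groups did not overlap, but the 2.38-fold difference missed the threshold (1.25 ± 0.518, adjusted p = 0.0501). It was called without Jack NaCl root replicate 1 (adjusted p = 0.0219) or 2 (0.0388), neither of which belongs to the compared groups. Fitting only the 2 compared groups called it as well (log2 1.24 ± 0.372, adjusted p = 0.0118). The cause was not tested.

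FLS1 passed the filter on low counts in root through the NaCl-treated groups, where it is high, so it is left out of the next counts. Of the other 3 branch genes tested in root, 2 were called with NaCl in Jack, both higher, and 3 in GmNFYA, 2 higher and 1 lower. Over all 36390 root genes, 56.9% were called in Jack, 29% as higher. In GmNFYA 56.7% were called, 28.6% as higher and 28.1% as lower. A change with NaCl was thus common among root genes at large. DFR2, ANS2, ANS3 and F3H2 were not tested in root. ANS2 had 7 reads in untreated Jack roots and 15 after NaCl, and 20 and 17 in GmNFYA roots. ANS3 had 0 and 2 reads in Jack roots and 2 and 2 in GmNFYA roots.

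**Figure D4:**
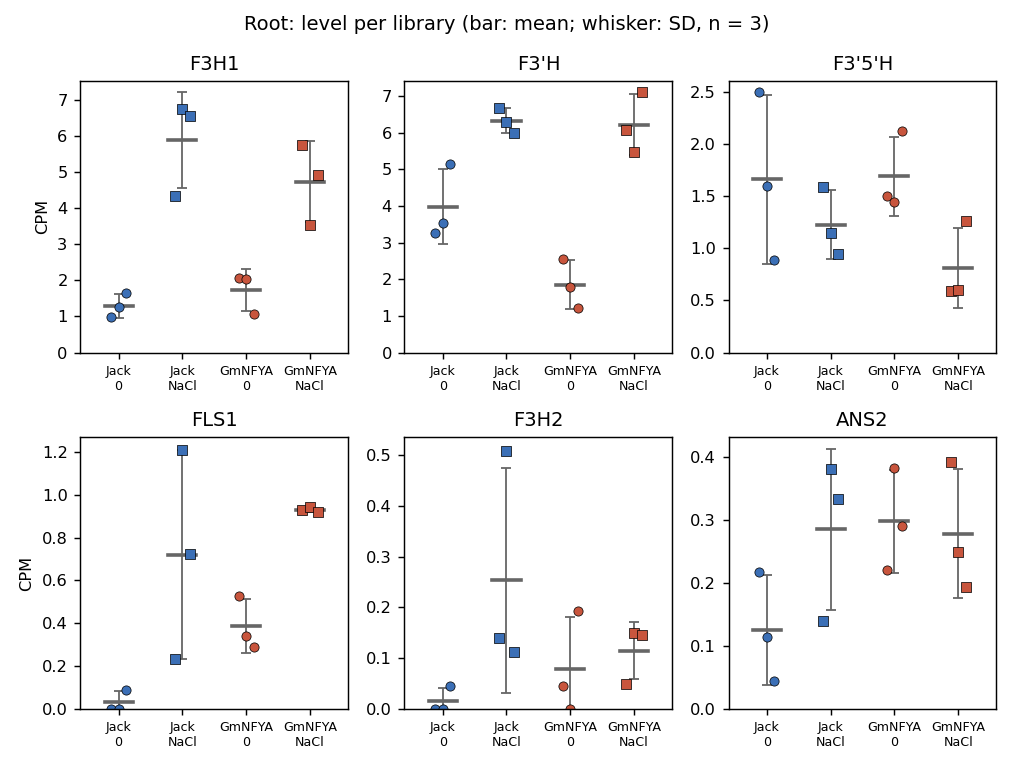
Root levels in CPM of F3H1, F3'H, F3'5'H, FLS1, F3H2 and ANS2 in Jack and GmNFYA, untreated (0) and after 150 mM NaCl for 6 h. DFR2 and ANS3, with 2 and 6 root reads, are not drawn. Points are the 3 libraries of a group, and bars give the mean ± SD. F3H1 and F3'H have all NaCl-treated libraries above the untreated ones of the same line, and FLS1 lies between 0 and 1.21 CPM.

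Between the lines, untreated roots differed in F3'H and FLS1. F3'H was 2.15-fold lower in GmNFYA than in Jack, 1.85 ± 0.677 against 3.98 ± 1.02 CPM, without overlap (-1.11 ± 0.245, adjusted p = 0.00415). FLS1 had 26 reads in GmNFYA and 2 in Jack, 11.4 times the level (95% counting interval 2.85 to 98.8), with an adjusted p of 0.0174. The FLS1 call was lost without GmNFYA untreated root replicate 1 (adjusted p = 0.0629) or Jack untreated root replicate 1 (0.0683) or 2 (0.0636), and without Jack untreated root replicate 3 the fitted log2 value rose from 3.29 to 5.97. FLS1 passed the filter through the NaCl-treated groups, so it is left out of the count here too. Of the other tested branch genes F3'H alone was called, beside 23.3% of root genes. F3H1 (log2 0.41, 95% interval -0.26 to 1.08) and F3'5'H (0.04, -0.75 to 0.82) were not called.

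With NaCl, no branch gene was called between the roots of the lines, at a background of 16.9%. None had an unadjusted p under 0.05, and DESeq2 called none. The log2 differences were -0.30 for F3H1 (95% interval -0.84 to 0.23), -0.03 for F3'H (-0.48 to 0.43), -0.60 for F3'5'H (-1.49 to 0.29) and 0.42 for FLS1 (-0.63 to 1.47). The genotype by NaCl interaction in root was called for 8.29% of genes and for none of the 4. F3'H came nearest, with a NaCl rise larger in GmNFYA by 1.08 ± 0.325 on the log2 scale (unadjusted p = 0.00436, adjusted p = 0.0512). It was called without GmNFYA untreated root replicate 1 (1.38, adjusted p = 0.0171), Jack untreated root replicate 1 (1.20, 0.0498) or Jack NaCl root replicate 1 (1.12, 0.0418), and by DESeq2 (0.0267). FLS1 also had an unadjusted p under 0.05 (0.018, adjusted p = 0.12), and was called without Jack NaCl root replicate 1 (adjusted p = 0.0299).

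The NaCl differences of leaf and root were set against each other in the joint fit. Of the 7 genes tested, DFR2 and ANS3 had at most 2 reads in any root group, so they give no NaCl change in root. In Jack, NaCl moved F3H1 and FLS1 further upward in root than in leaf. Over all genes 26.7% were called and 14.2% in that direction. The difference of the log2 changes was 2.32 ± 0.367 for F3H1 (adjusted p = 8.33e-05) and 4.80 ± 0.855 for FLS1 (adjusted p = 0.000266). Leaving out 1 library gave 4.25 to 7.39 for FLS1, the highest without Jack untreated root replicate 3. In GmNFYA the difference was called for F3H1 at 1.35 ± 0.350 (adjusted p = 0.00493), F3'H at 1.31 ± 0.344 (adjusted p = 0.005) and FLS1 at 1.40 ± 0.496 (adjusted p = 0.0342). The background there was 33.7% in either and 17.5% in that direction. FLS1 in Jack fell in leaf by its own test. In Jack root it had 2 reads untreated and 37 after NaCl, and it passed the root filter through the NaCl-treated groups. Without Jack untreated root replicate 3, F3'H was called in Jack too (log2 0.98, adjusted p = 0.0490), and ANS2 was called without Jack untreated leaf replicate 2 (1.95, 0.0328). The GmNFYA call of FLS1 was lost without untreated leaf replicate 1, NaCl leaf replicate 1 or 3, untreated root replicate 2 or 3 or any NaCl root replicate of that line, with adjusted p from 0.0508 to 0.117.

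**Figure D5:**
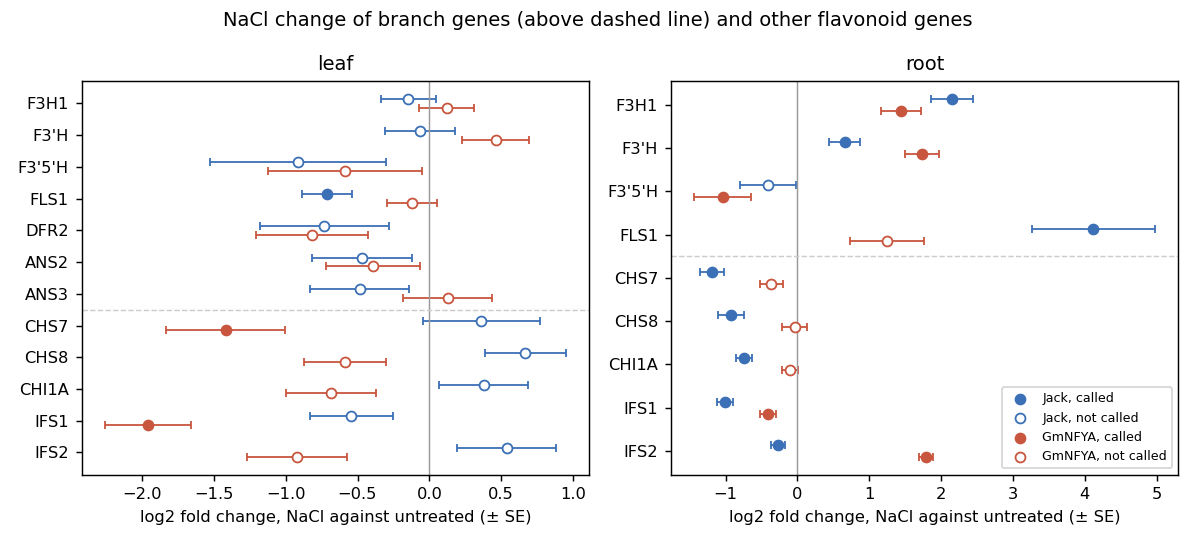
NaCl change of the branch genes (above the dashed line) and of other flavonoid genes, as log2 fold change ± SE against untreated plants, in leaf and root. Colours give the line, and filled points were called at an adjusted p under 0.05. In Jack root F3H1 (2.16), F3'H (0.66) and FLS1 lie above 0, whereas CHS7 (-1.19), CHS8, CHI1A, IFS1 and IFS2 lie below it.

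The branch shares its precursors with isoflavone and flavone synthesis. A list of 9 further identifiers, recalled from published work, was counted beside it. It holds CHS7 and CHS8 (chalcone synthase, the entry step), CHI1A (chalcone isomerase), FNSII-1 and FNSII-2 (flavone synthase), IFS1 and IFS2 (isoflavone synthase), ANR1 (anthocyanidin reductase, towards proanthocyanidins) and the MYB regulator of the R locus, known for seed coat colour. R had 0 reads in all 24 libraries, and ANR1 had 4 reads in leaf and 13 in root. In leaf 6 of the 9 were tested and in root 5.

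In Jack roots the 5 tested upstream and isoflavone genes all fell with NaCl, while F3H1 and F3'H rose. The background was 56.9% of root genes called in Jack. The largest of these falls was CHS7, 2.28-fold (-1.19 ± 0.164, adjusted p = 2.03e-05), and the smallest was IFS2, 1.21-fold (adjusted p = 0.0248). In GmNFYA roots, at a background of 56.7%, 1 of the 5 fell, IFS1 by 1.32-fold (adjusted p = 0.00546), and 1 rose, IFS2 by 3.46-fold (adjusted p = 4.37e-10). IFS2 stood at 150.3, 179 and 182 CPM in untreated GmNFYA roots and at 656, 635 and 606 in untreated Jack roots, 3.71-fold lower in GmNFYA (adjusted p = 4.55e-09). CHS7, CHS8 and IFS1 were also lower in untreated GmNFYA roots, by 1.48-fold, 1.77-fold and 1.55-fold, where 23.3% of root genes were called. The genotype by NaCl interaction was called for all 5 in root, all positive, from 0.61 for IFS1 to 2.06 for IFS2, beside 8.29% of root genes called. With NaCl, CHI1A was the 1 of the 5 called between the roots of the lines, 1.27-fold higher in GmNFYA (adjusted p = 0.037), where 16.9% of root genes were called.

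In leaves none of the 6 tested list genes was called with NaCl in Jack, CHS8 alone having an unadjusted p under 0.05, at a background of 33.6%. In GmNFYA leaves CHS7 fell 2.67-fold (adjusted p = 0.0226) and IFS1 fell 3.89-fold (adjusted p = 0.000476), at a background of 36.1%. The genotype by NaCl interaction in leaf was called for none of the 6, beside 2.45% of leaf genes, although 5 had an unadjusted p under 0.05. A different NaCl change of these genes in leaves of the lines is therefore not shown. Between NaCl-treated leaves IFS1 was lower in GmNFYA, 2.12-fold (adjusted p = 0.0417), where F3H1 and ANS3 were higher and 9.61% of leaf genes were called. Jack NaCl leaf replicate 1 stood apart for CHS7, at 205 CPM against 59.8 and 69.5 in its group. For IFS1 it stood at 183 CPM against 80.2 and 94.9. It was also the highest of its group for CHS8, CHI1A, IFS2 and FNSII-1. The IFS1 call between NaCl-treated leaves was not re-tested without that library. For the branch genes that library was the lowest of its group in 4 cases and the highest in 2. In untreated Jack 5 of the 6 tested list genes were higher in root, the opposite direction from F3H1 and FLS1. There 69.9% of genes were called between tissues. CHS7 was 10.2-fold, CHS8 12.8-fold, CHI1A 5.12-fold, IFS1 9.11-fold and IFS2 3.46-fold higher in root. FNSII-1 was 113-fold lower in root, the same direction as F3H1 and FLS1. In untreated GmNFYA 4 of the 6 were called higher in root and 2 lower, beside 70.9% of genes called.

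Across the 12 leaf libraries the 7 branch genes varied together. Pearson's r of log2 CPM was positive in all 21 pairs, from 0.26 for F3'H and DFR2 to 0.90 for F3H1 and ANS3, with a median of 0.67. With each group's mean removed the 21 values lay between 0.14 and 0.87 with a median of 0.58. These values are descriptions, since the pairs share libraries and their scaling. In GmNFYA untreated leaves replicate 2 was the lowest for 6 of the 7 genes and replicate 1 the highest for 5. In root F3H1, F3'H and FLS1 correlated positively with each other, from 0.35 to 0.81, and F3'5'H correlated negatively with each of them, from -0.64 to -0.59.

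For each gene the most similar other identifier was taken by r of log2 CPM over the 12 libraries of a tissue, among those whose mean log2 CPM was 0 or more. In leaf these were 02G046300 for F3H1 (r = 0.95), 13G184200 for F3'H (0.91), 13G320300 for F3'5'H (0.96), 12G217400 for FLS1 (0.93), 15G043600 for DFR2 (0.93), 02G051500 for ANS2 (0.94) and 11G022900 for ANS3 (0.94). Other branch genes were left out of the search, so none could be named here. In root the most similar identifiers were 14G199900 for F3H1 (0.98), 02G024600 for F3'H (0.98), 18G268400 for F3'5'H (0.93) and 15G266300 for FLS1 (0.98). In root 1423 identifiers passed an r of 0.9 with F3H1, and in leaf 4 did.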

How the data were processed

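Leaf and root RNA of Jack and GmNFYA soybean was read from the read counts per gene that the authors deposited, 1 table per tissue with 57110 rows. Of these, 57105 are genes and 5 are summary rows, which entered neither library sizes nor tests. Reads counted to genes made up 75.5% to 81.2% of a leaf library's total and 70.8% to 78.2% of a root library's. HISAT2, featureCounts and DESeq2 are named, without version or role, in the submitters' processing notes. For the genome build, the annotation and the strand setting, nothing is given in the sources used here. Per the labels' protocols, RNA was extracted with TRIzol and libraries followed standard Illumina protocols.

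Counts were fitted with edgeR 4.0.16 (R 4.3.3, limma 3.58.1; robust quasi-likelihood F test, TMM scaling, filterByExpr with a minimum count of 10). Each tissue was fitted on its 4 groups, and tissue comparisons used all 24 libraries. P-values were Benjamini-Hochberg adjusted over all genes tested and called under 0.05. SE is the log2 fold change divided by the square root of F, and 95% intervals use the t distribution of the fit. Counting intervals and the limit of 3 counts cover counting error only. The fit was also run on simulated counts, with changes placed only in genes above a count limit. That run does not cover genes with few reads, such as FLS1 in root. It also changed far fewer genes than were called with NaCl in root. Alternatives were DESeq2 1.42.0, DESeq2's type of size factors (RLE), other filters, only the compared groups, the replicate number as a block and leaving out each library. They were read for the branch genes only, so calls of the further flavonoid genes were not re-tested.

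All 9 listed genes are named. The genes were listed by identifier and not by a measured value, but the genes and lists were chosen with earlier results of these data known. The further flavonoid identifiers were recalled and not checked against an annotation of the build used. Reported p-values come from fits without the replicate number, which entered as a block among the alternatives only. Same-numbered libraries were read as deviating together where all 3 pairs of a comparison correlated above 0.1 in their deviations from the group means. This held between NaCl-treated leaves of the lines (0.15 to 0.30) and for NaCl in Jack root (0.16 to 0.43), and in no other comparison of 2 groups within a tissue; the labels do not say what the numbers share. No 2 libraries of a group agreed within sampling noise. Neither sequences nor coordinates are given, since no reference of the identifiers' build was used here.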

Additional observations from a re-analysis of the deposited data

Results flagged for a closer look

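The NaCl change of 3 branch genes differed between leaf and root by a test of the difference itself, the tissue by NaCl interaction of edgeR's joint fit of 24 libraries, as log2 change in root minus log2 change in leaf. In Jack it was 2.32 ± 0.367 for F3H1 (adjusted p = 8.33e-05) and 4.80 ± 0.855 for FLS1 (adjusted p = 0.000266), the latter ranging from 4.25 to 7.39 when 1 library was left out. In GmNFYA it was 1.35 ± 0.350 for F3H1 (adjusted p = 0.00493), 1.31 ± 0.344 for F3'H (adjusted p = 0.005) and 1.40 ± 0.496 for FLS1 (adjusted p = 0.0342). The GmNFYA call of FLS1 was lost under 9 of 17 alternatives, the replicate block and 8 that leave out 1 library, with adjusted p up to 0.117. The Jack value of FLS1 rests on 2 reads in untreated roots and 37 after NaCl. Jack untreated roots also had the largest share of reads aligning to several places, 9.64% ± 0.590, and its part in these values was not tested.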

How the results depend on the processing

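Calls of FLS1 with NaCl in Jack leaf and of F3H1 with NaCl in both roots held under every alternative that tested them. So did the calls of F3'H with NaCl in GmNFYA root and between untreated roots. FLS1 with NaCl in Jack root was called under the 16 alternatives that tested it, where F3H1 had 18. It had passed the root filter through the NaCl-treated groups, so these repeated calls add no support. Low counts limit FLS1 in root, where 2 reads stand for untreated Jack. Over all groups of a tissue, same-numbered deviations from group means correlated at -0.08 to 0.32 in leaf (median 0.14, 11 of 18 over 0.1) and -0.51 to 0.43 in root (median -0.03, 4 of 18). Differently numbered ones had medians of -0.03 in leaf (1 of 36 over 0.1) and 0.05 in root (15 of 36). With the replicate number as a block, 1 branch gene in place of 2 was called between the lines in NaCl-treated leaf (ANS3 lost, adjusted p = 0.0521), and FLS1 lost its tissue by NaCl call in GmNFYA (log2 1.39, adjusted p = 0.0535). The block changed no other call of these genes.

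Among the other settings, fitting only the 2 compared groups called 1 gene (DFR2, adjusted p = 0.0420) with NaCl in GmNFYA leaf, where the reported count is 0. Between NaCl-treated leaves it lost F3H1 (0.0579) and ANS3 (0.0809) and gained F3'H (0.0463) and FLS1 (0.0342), leaving the count at 2. With NaCl in GmNFYA root it gained FLS1 (0.0118). Between untreated roots the count with FLS1 included fell from 2 to 1 with a filter of CPM above 1 in 3 libraries and with only the 2 groups. FLS1 was then not tested. For the genotype by NaCl interaction in root it rose from 0 to 1 (F3'H) with DESeq2 and with no filter. DESeq2 also called F3'H between NaCl-treated leaves (0.0465), and with NaCl in Jack root it called 4 genes in place of 3, FLS1 included in both.

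Leaving out each library in turn gave 1 to 2 calls for NaCl in Jack leaf, 0 to 3 between NaCl-treated leaves, 0 to 1 for the interaction in leaf, 1 to 2 between untreated roots and 0 to 2 for the interaction in root. No called value changed sign. These uncalled log2 values did, over the ranges given, and the cause was not tested. With NaCl in Jack leaf they were F3H1 (-0.32 to 0.0025) and F3'H (-0.15 to 0.10), and in GmNFYA leaf F3H1 (-0.062 to 0.28) and ANS3 (-0.12 to 0.31). Between untreated leaves it was FLS1 (-0.29 to 0.068). For the interaction in leaf they were F3'5'H (-0.29 to 0.71), DFR2 (-0.45 to 0.38) and ANS2 (-0.18 to 0.42). With NaCl in Jack root it was F3'5'H (-0.73 to 0.017). Between roots they were F3'5'H untreated (-0.28 to 0.46), F3'H with NaCl (-0.13 to 0.059) and FLS1 with NaCl (-0.038 to 0.99). Between tissues they were F3'H in untreated Jack (-0.060 to 0.39) and the F3'5'H tissue by NaCl value in GmNFYA (-0.95 to 0.21).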
